A study of Mus musculus with 6 samples.

Results

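The 36 genes described here encode proteins that copy DNA in S phase or divide the chromosomes in mitosis, and they were taken by name from a list. All 36 were found among the 55401 gene identifiers of the count table, and all 36 passed the filter on low counts that left 18537 genes to test. They comprise 14 S phase genes and 22 mitosis genes. The S phase set holds the replication licensing and nucleotide supply genes, Ccne1, Ccne2 and E2f1. All other members were counted as mitosis genes, with Ccna2, a cyclin of S phase and G2, among them. They were measured in poly(A)-selected RNA of whole mouse lacrimal gland, the gland that makes most of the aqueous tear, in 3 libraries of control ICR mice and 3 of NOD/Ltj mice, with 1 library per sample. ICR is an outbred stock, and NOD/Ltj is an inbred strain used as a model of autoimmune diabetes and of Sjögren-like inflammation of the tear and salivary glands. The 2 groups therefore differ in their whole genetic background, not in 1 allele. The labels used here give no age, sex, treatment or pooling for either group. The sample titles of the NOD/Ltj libraries read "MOD", while their genotype label reads NOD/Ltj and their count columns read NOD.

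A cell that divides passes from G1 through S phase and G2 to mitosis, driven by cyclins that bind and activate cyclin-dependent kinases. E2F factors switch on the genes of DNA synthesis at the start of S phase, and a later wave under B-MYB and FOXM1 switches on the mitosis genes. The transcripts of both waves are low in resting cells, which is why Mki67, Top2a and their like are read as marks of proliferation. In a gland, acinar, ductal and stromal cells and the lymphocytes that enter it can all divide, and whole-tissue RNA does not tell which of them a transcript came from. In such bulk samples, fewer dividing cells and less of these RNAs per dividing cell cannot be told apart.

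The promoters of 6 members are printed first, and no count, score or fit below depends on them. Mki67 stands for the mitosis genes, Cdk1 carries all 3 motifs searched, Mcm3, Mcm5 and Mcm6 are the licensing genes with the largest differences once 1 control library is set aside, and Mcm2 is the only member whose NOD/Ltj libraries all lay below all ICR libraries. These 6 were chosen after their values were seen. Each runs from 250 bases before the annotated start to 50 bases after it, 5′ to 3′ along the gene, and comes from RefSeq promoters on GRCm38.p6. Capitals mark motif matches on either strand.
Mki67, chr7:135716330-135716629, minus strand: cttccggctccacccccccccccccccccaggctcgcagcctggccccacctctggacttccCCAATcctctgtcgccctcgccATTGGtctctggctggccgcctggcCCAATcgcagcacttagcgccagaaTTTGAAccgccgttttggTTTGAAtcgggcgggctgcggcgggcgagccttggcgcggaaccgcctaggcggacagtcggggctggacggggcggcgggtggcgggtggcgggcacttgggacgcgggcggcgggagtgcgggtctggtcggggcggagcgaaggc
Cdk1, chr10:69352863-69353162, minus strand: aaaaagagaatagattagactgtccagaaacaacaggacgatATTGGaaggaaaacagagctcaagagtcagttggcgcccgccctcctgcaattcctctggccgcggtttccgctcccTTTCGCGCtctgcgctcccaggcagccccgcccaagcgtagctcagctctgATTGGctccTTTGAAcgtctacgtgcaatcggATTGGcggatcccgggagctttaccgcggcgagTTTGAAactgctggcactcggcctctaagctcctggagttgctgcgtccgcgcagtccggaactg
Mcm2, chr6:88898731-88899030, minus strand: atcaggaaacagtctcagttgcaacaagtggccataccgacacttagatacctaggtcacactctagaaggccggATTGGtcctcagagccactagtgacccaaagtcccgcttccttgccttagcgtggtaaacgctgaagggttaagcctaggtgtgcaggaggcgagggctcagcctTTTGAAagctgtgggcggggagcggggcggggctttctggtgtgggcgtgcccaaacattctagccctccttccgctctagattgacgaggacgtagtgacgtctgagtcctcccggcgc
Mcm3, chr1:20820263-20820562, minus strand: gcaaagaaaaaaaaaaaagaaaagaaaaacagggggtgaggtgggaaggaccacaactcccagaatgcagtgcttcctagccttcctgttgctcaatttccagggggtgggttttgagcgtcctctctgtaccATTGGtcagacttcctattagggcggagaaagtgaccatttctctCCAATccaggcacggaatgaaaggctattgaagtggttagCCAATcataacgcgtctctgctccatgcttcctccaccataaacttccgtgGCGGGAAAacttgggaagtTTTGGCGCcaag
Mcm5, chr8:75109259-75109558, plus strand: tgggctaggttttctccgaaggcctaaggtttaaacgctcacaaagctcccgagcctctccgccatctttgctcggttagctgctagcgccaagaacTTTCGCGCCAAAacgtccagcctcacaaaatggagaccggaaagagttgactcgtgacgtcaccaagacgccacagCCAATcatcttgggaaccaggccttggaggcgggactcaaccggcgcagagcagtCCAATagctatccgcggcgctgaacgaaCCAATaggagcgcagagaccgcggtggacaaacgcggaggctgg
Mcm6, chr1:128359656-128359955, minus strand: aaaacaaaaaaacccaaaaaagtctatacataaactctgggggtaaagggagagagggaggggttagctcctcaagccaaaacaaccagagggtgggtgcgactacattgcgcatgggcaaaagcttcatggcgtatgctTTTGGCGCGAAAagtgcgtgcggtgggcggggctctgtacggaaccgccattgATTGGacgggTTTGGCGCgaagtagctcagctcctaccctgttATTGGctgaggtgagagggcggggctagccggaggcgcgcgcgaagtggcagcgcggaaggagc
The motifs searched on both strands were the cell cycle homology region of mitosis genes (TTTGAA or TTCGAA), the CCAAT box (CCAAT) and the E2F site (TTTCCCGC, TTTCGCGC, TTTGCCGC or TTTGGCGC). RefSeq promoters were matched for 29 of the 36 members, which gave 30 promoters because Mcm7 has 2. The homology region was found in 13 of 17 mitosis promoters (76.5%) and in 2 of 13 S phase promoters (15.4%), where 19.2% of all 32851 promoters of the same length hold it. The E2F site was found in 4 of 13 S phase promoters (30.8%; those of Mcm3, Mcm5, Mcm6 and Mcm7) and in 1 of 17 mitosis promoters (5.88%; that of Cdk1), against 2.26% of all promoters. The CCAAT box was found in 82.4% of the mitosis promoters, 69.2% of the S phase promoters and 37.4% of all. A match describes the letters in the window and is not evidence of a bound site.

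The 6 libraries held between 58426580 (ICR 1) and 76554340 (ICR 2) estimated counts. Low counts came in steps: 808 to 1043 genes a library had 4 counts, against 368 to 497 with 3 and 223 to 337 with 5. If a fragment adds about 4 counts, as these steps fit, the members rested on few molecules. The lowest member count was 29 (Cdca8 in ICR 3), then about 7.25 fragments, and the highest was 1246 (Pcna in ICR 1), then about 312 fragments. Levels are given as CPM, counts scaled to a common library size with TMM factors. ICR 1 stood apart from the other ICR libraries in markers of several tissues: its fibroblast markers summed to 2840 CPM against 614 and 646 CPM in ICR 2 and ICR 3, its macrophage markers to 331 CPM against 75.0 and 99.0 CPM, and its acinar markers to 17927 CPM against 54020 and 44944 CPM. ICR 3 held most skeletal muscle and salivary gland marker RNA among the controls. Its muscle markers summed to 118 CPM, against 1.10 CPM in ICR 1 and 1.28 CPM in ICR 2. Its salivary markers summed to 13825 CPM, against 611 CPM in ICR 1 and 1353 CPM in ICR 2. The log2 fold changes of the members are given with and without ICR 1. The reference of ICR 2 and ICR 3 used below thus includes a library that also stood apart.

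As a set, the 36 genes stood highest in ICR 1, lowest in ICR 2 and ICR 3, and in between in the 3 NOD/Ltj libraries. The score of a library is the mean over members of log2(CPM + 0.5). It was 2.04 in ICR 1, 1.40 in ICR 2 and 1.36 in ICR 3, and 1.79, 1.93 and 1.86 in NOD/Ltj 1, 2 and 3. The NOD/Ltj scores lay close together and inside the range of the ICR scores, so the groups overlapped. The ICR mean was 1.60 ± 0.38 (SD, n = 3). The NOD/Ltj mean was 1.86 ± 0.07 (SD, n = 3), a difference of 0.26 that is smaller than the SD of the ICR libraries. Against ICR 2 and ICR 3 alone, the NOD/Ltj score was 0.48 higher, or 1.39-fold, and the ICR 1 score was 0.66 higher, or 1.59-fold. Both of these differences share ICR 2 and ICR 3 as their reference.

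**Figure D1:**
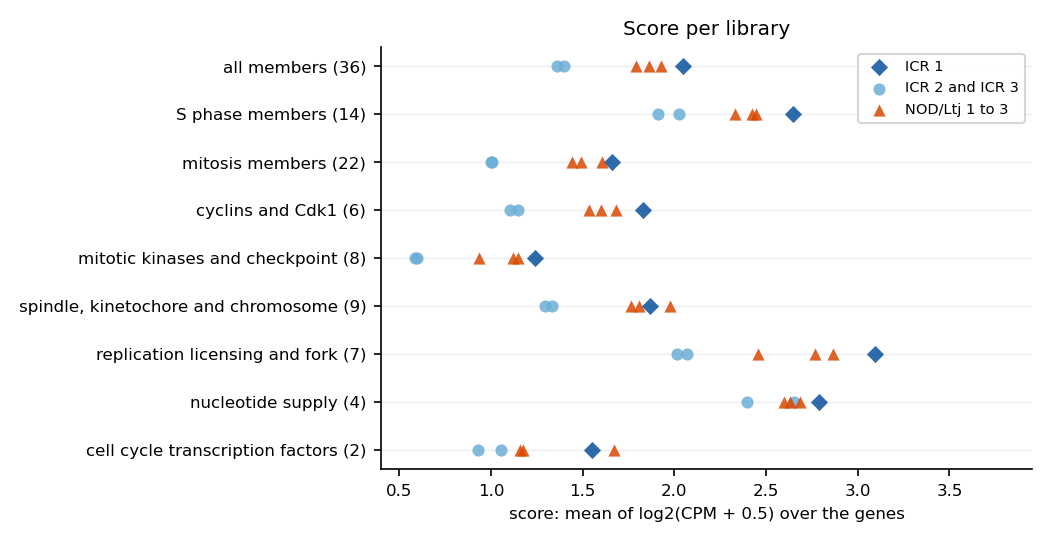
Score per library (mean log2(CPM + 0.5), horizontal axis) for all 36 members, the 14 S phase genes, the 22 mitosis genes and the 6 role groups, with ICR 1 as a dark diamond, ICR 2 and 3 as light circles and the NOD/Ltj libraries as triangles. For all members ICR 1 is at 2.04, the NOD/Ltj libraries are between 1.79 and 1.93, and ICR 2 and 3 are at 1.40 and 1.36.

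The same order held for S phase and for mitosis. The S phase score was 2.64 in ICR 1, 2.03 in ICR 2 and 1.91 in ICR 3, against 2.33, 2.43 and 2.44 in NOD/Ltj. The mitosis score was 1.66 in ICR 1, 1.00 in ICR 2 and 1.01 in ICR 3, against 1.44, 1.61 and 1.49 in NOD/Ltj. In both sets ICR 1 exceeded every NOD/Ltj library, and ICR 2 and ICR 3 lay below every one of them. The licensing genes spread widest, at 3.09 in ICR 1 against 2.01 and 2.07 in the other ICR libraries and 2.46, 2.86 and 2.77 in NOD/Ltj. The nucleotide supply genes spread least, between 2.40 and 2.79 over all 6 libraries. The difference between S phase and mitosis genes was not tested.

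ICR 1 was the highest ICR library for 30 of the 36 members (83.3%), where it was so for 39.7% of all genes tested. It was the highest of all 6 libraries for 18 members (50.0%, against 26.0% of all genes). In 22 members (61.1%, against 22.5% of all genes) ICR 1 was over 1.5 times the mean of ICR 2 and ICR 3. The median member stood 1.61-fold higher in ICR 1 than in ICR 2 and ICR 3, and the median licensing gene 2.21-fold. Between ICR 2 and ICR 3 members differed in both directions, as in Ccne1 (1.62 and 0.629 CPM) and Nusap1 (0.840 and 1.66 CPM), and the median signed log2 difference, ICR 2 minus ICR 3, was 0.04. The median coefficient of variation of a member was 38.6% over the ICR libraries and 20.7% over the NOD/Ltj libraries, where over all genes tested these medians were 28.8% and 20.2%.

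No member was called between NOD/Ltj and ICR over the 6 libraries. By edgeR's quasi-likelihood test with Benjamini-Hochberg adjustment over 18537 genes, 0 of 36 were higher and 0 lower at an adjusted p under 0.05, where 1.88% of all genes tested were called higher and 0.361% lower (2.24% in either direction). No member reached an unadjusted p under 0.05 either, against 13.1% of all genes. The adjusted p of the members ran from 0.421 (Foxm1) to 0.999 (Kif20a). DESeq2 called 0 members, where it called 6.38% of all genes, and 0 members had an unadjusted p under 0.05 (14.6% of all genes). Limma-voom called 0 members, against 0.771% of all genes, and 2 had an unadjusted p under 0.05, both higher (13.2% of all genes in either direction). The log2 fold change, NOD/Ltj over ICR, was positive in 28 members and negative in 8, with a median of 0.22, where the median over all genes tested was −0.03 and 47.0% were positive. The median standard error of a member's log2 fold change was 0.39, so changes of the size of the median were not detectable at this spread. In 6 members (16.7%) every NOD/Ltj library lay above every ICR library, against 11.2% of all genes; these were Ccne1, Aurkb, Bub1b, Kif11, Kif2c and Foxm1. In 1 member, Mcm2 (2.78%), every NOD/Ltj library lay below every ICR library, against 8.89% of all genes.

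**Figure D2:**
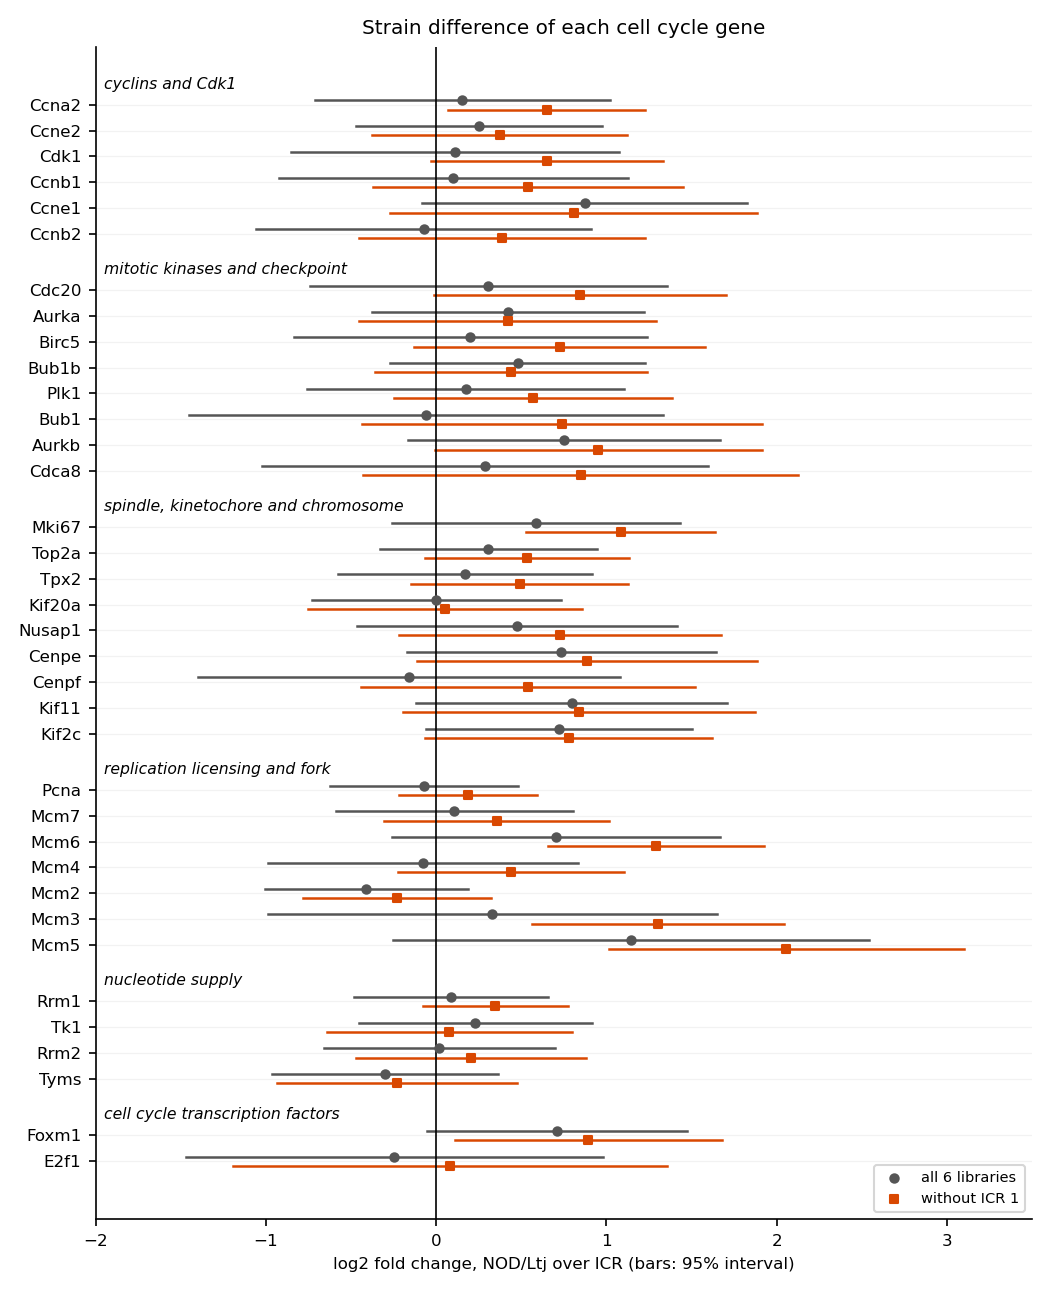
Log2 fold change of NOD/Ltj over ICR (horizontal axis) with its 95% interval for each of the 36 members, over all 6 libraries (grey circles) and without ICR 1 (orange squares). Over 6 libraries every interval takes in 0; without ICR 1 34 of 36 values are positive, and the intervals of Ccna2, Mki67, Mcm3, Mcm5, Mcm6 and Foxm1 lie above 0.

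With ICR 1 set aside, more members stood higher in NOD/Ltj, and still none was called. ICR 1 was the highest ICR library for 30 of the 36 members, against 39.7% of all genes. Leaving it out therefore raises most of the members' values by construction, and the rise is not a separate result. In this fit of 2 ICR against 3 NOD/Ltj libraries, edgeR's quasi-likelihood test called 0 of 36 members, where 2.10% of the 19322 genes tested were called higher and 0.611% lower. The lowest adjusted p of a member was 0.0603, for Mcm6. The 6 members at an unadjusted p under 0.05, all higher, were Ccna2, Mki67, Mcm3, Mcm5, Mcm6 and Foxm1 (16.7%), where 10.5% of all genes were higher and 6.12% lower at that threshold. The log2 fold change was positive in 34 of 36 members, with a median of 0.55 against −0.02 over all genes. The 2 negative members were Mcm2 and Tyms. In 23 members (63.9%) every NOD/Ltj library lay above ICR 2 and ICR 3, against 18.9% of all genes; 17 of these were among the 22 mitosis genes and 6 among the 14 S phase genes. Mcm2 was the 1 member (2.78%) with every NOD/Ltj library below, against 16.3% of all genes.

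**Figure D3:**
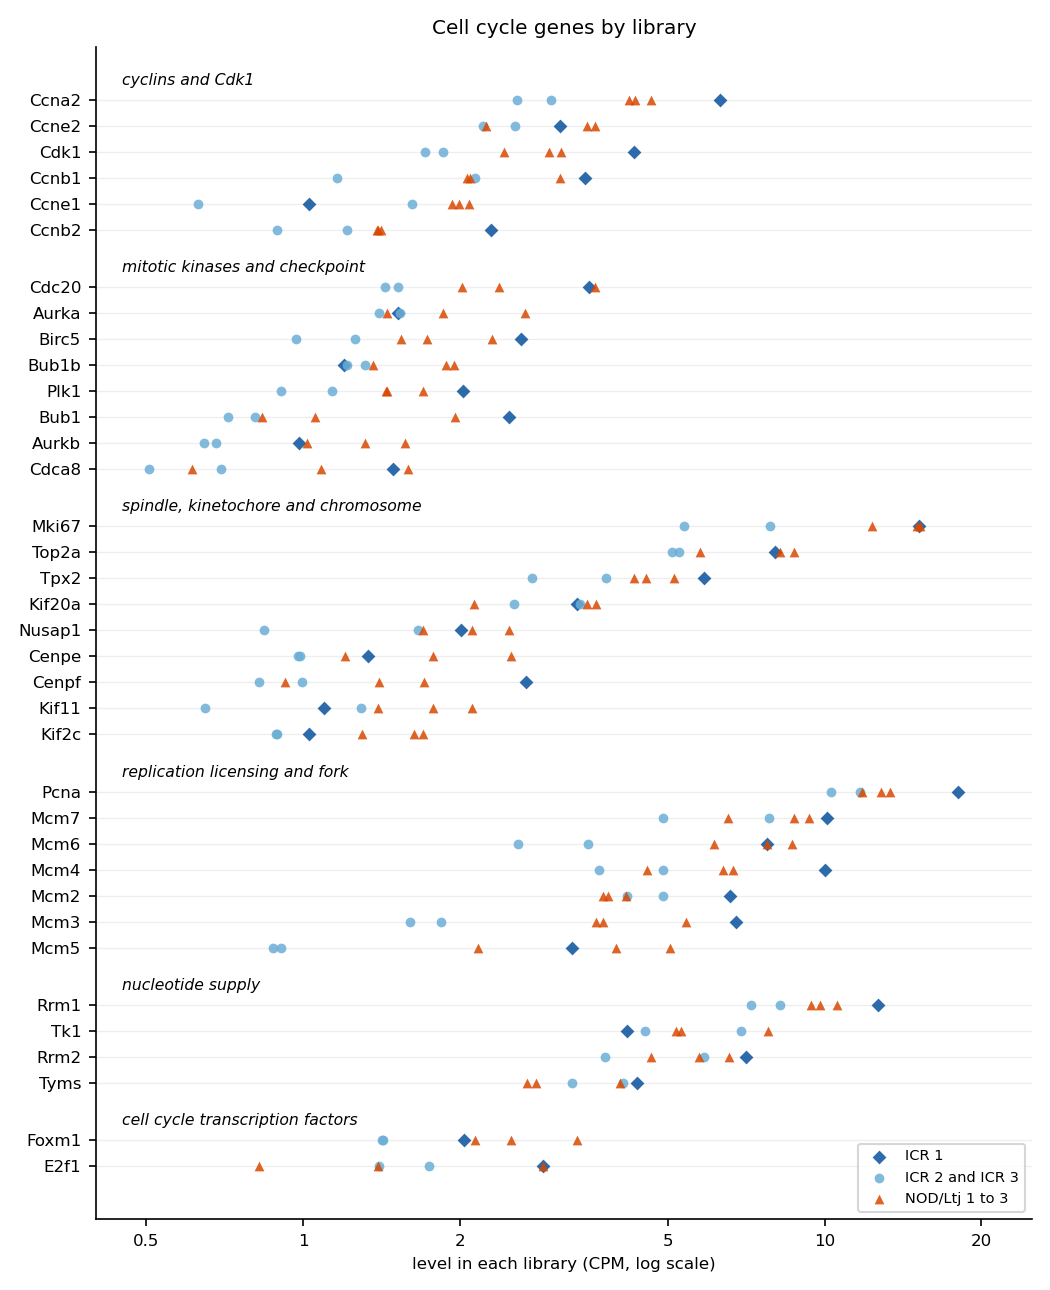
CPM of each of the 36 members (log axis), grouped by role, with ICR 1 as a dark diamond, ICR 2 and 3 as light circles and the NOD/Ltj libraries as triangles. In 18 members the diamond of ICR 1 is the highest of the 6 points, and in Mcm3, Mcm5 and Mcm6 the circles of ICR 2 and 3 lie well below all other points.

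The cyclins and Cdk1 drive the cycle, and 5 of these 6 members had a positive log2 fold change, with a median of 0.13 over all libraries and 0.59 without ICR 1. Ccna2, the cyclin of S phase and G2 and the member of this group with the highest CPM, stood at 6.31, 2.57 and 2.99 CPM in ICR 1 to 3 and at 4.22, 4.33 and 4.65 CPM in NOD/Ltj 1 to 3. ICR 1 was the highest library and ICR 2 and ICR 3 the lowest, with the NOD/Ltj libraries close together between them. The log2 fold change of Ccna2 was 0.15 (edgeR adjusted p = 0.925) over all libraries and 0.65 without ICR 1 (95% interval 0.07 to 1.23, adjusted p = 0.247). Ccne1, the cyclin of entry into S phase, stood at 1.03, 1.62 and 0.629 CPM in ICR and at 1.93, 1.99 and 2.08 CPM in NOD/Ltj. It was one of the few members in which ICR 1 was not the highest ICR library, and its groups did not overlap. For Ccne1 the log2 fold change was 0.87 (95% interval −0.08 to 1.83, edgeR adjusted p = 0.431), the largest of this group, and 0.81 without ICR 1. Ccnb1 and Ccnb2, the mitotic cyclins, and Cdk1, their kinase, had ICR 1 at 2.10, 2.18 and 2.41 times the mean of ICR 2 and ICR 3. Their log2 fold changes over all libraries were 0.10, −0.07 and 0.11, and 0.54, 0.39 and 0.65 without ICR 1. Ccne2 had a log2 fold change of 0.25, and 0.37 without ICR 1. Ccnb1 and Ccnb2 have processed pseudogene copies with 52 and 284 counts over the 6 libraries, against 906 and 564 for the genes, so their counts are uncertain.

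The kinases and checkpoint genes time mitosis and the release of the chromosomes, and 7 of these 8 members had a positive log2 fold change, with a median of 0.30 and of 0.73 without ICR 1. Cdc20, the activator of the anaphase-promoting complex and the member of this group with the highest CPM, stood at 3.54, 1.52 and 1.43 CPM in ICR and at 2.02, 2.38 and 3.64 CPM in NOD/Ltj. ICR 1 reached the level of the highest NOD/Ltj library, and ICR 2 and ICR 3 were below all others. The Cdc20 log2 fold change was 0.31 (95% interval −0.74 to 1.35, edgeR adjusted p = 0.855), and 0.84 without ICR 1 (adjusted p = 0.307). Aurkb, the kinase of the chromosomal passenger complex, stood at 0.982, 0.646 and 0.682 CPM in ICR and at 1.31, 1.57 and 1.01 CPM in NOD/Ltj. Its groups did not overlap, but the gap between ICR 1 and NOD/Ltj 3 was small. For Aurkb the log2 fold change was 0.75 (95% interval −0.16 to 1.67, edgeR adjusted p = 0.495), the largest of this group, and 0.95 without ICR 1. Birc5 and Cdca8, partners of Aurkb in that complex, had log2 fold changes of 0.20 and 0.29, and of 0.73 and 0.85 without ICR 1, which stood at 2.35 and 2.48 times the mean of ICR 2 and ICR 3. Bub1, a spindle checkpoint kinase, had ICR 1 at 3.26 times that mean, and its log2 fold change was −0.06 over all libraries and 0.74 without ICR 1. The related Bub1b had ICR 1 at 0.951 times that mean and a log2 fold change of 0.48, and 0.44 without ICR 1. Aurka and Plk1, kinases of the spindle poles, had log2 fold changes of 0.42 and 0.17, and of 0.42 and 0.57 without ICR 1.

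The genes of the spindle, kinetochore and mitotic chromosomes had 8 of 9 positive log2 fold changes, with a median of 0.48 and of 0.73 without ICR 1. Mki67, which encodes the Ki-67 protein that coats mitotic chromosomes, stood at 15.2, 7.87 and 5.37 CPM in ICR and at 15.1, 15.2 and 12.3 CPM in NOD/Ltj. ICR 1 matched the higher NOD/Ltj libraries, and ICR 2 and ICR 3 lay well below all NOD/Ltj libraries. The ICR mean was 9.47 ± 5.09 CPM (SD, n = 3), and that of NOD/Ltj was 14.2 ± 1.62 CPM (SD, n = 3). The log2 fold change was 0.59 (standard error 0.36, edgeR adjusted p = 0.579). Without ICR 1 it was 1.08 (standard error 0.23, adjusted p = 0.0666), or 2.12-fold. Kif11, a motor that pushes the spindle poles apart, stood at 1.10, 1.29 and 0.647 CPM in ICR and at 1.78, 2.11 and 1.39 CPM in NOD/Ltj. Its groups did not overlap, with ICR 1 between the other ICR libraries. The Kif11 log2 fold change was 0.80 (95% interval −0.12 to 1.71, edgeR adjusted p = 0.465), the largest of this group, and 0.84 without ICR 1. Kif2c, a motor that takes microtubules apart, had a log2 fold change of 0.72, and 0.78 without ICR 1, with groups that did not overlap. Cenpe and Nusap1, a kinetochore motor and a spindle protein, had 0.73 and 0.48, and 0.89 and 0.73 without ICR 1. Top2a, which untangles DNA, and Tpx2, a spindle assembly factor, had 0.31 and 0.17, and 0.53 and 0.49 without ICR 1. Cenpf had ICR 1 at 2.94 times the mean of ICR 2 and ICR 3 and a log2 fold change of −0.16, which was 0.54 without ICR 1. Kif20a had a log2 fold change of 0.00, and 0.05 without ICR 1, but 29.3% of its exon bases overlap Cdc23 on the opposite strand. The strand setting of the counting is not given in the sources used here, so that value is uncertain.

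The licensing group holds Mcm2 to Mcm7, which encode subunits of the replicative helicase, and Pcna. The log2 fold changes of these genes varied most among themselves. Their median log2 fold change was 0.11 over all libraries, with 4 of 7 positive, and 0.44 without ICR 1. Pcna, the sliding clamp of DNA polymerases and the member with the highest CPM in this group, stood at 18.0, 11.7 and 10.3 CPM in ICR and at 11.8, 13.3 and 12.8 CPM in NOD/Ltj. ICR 1 stood above all NOD/Ltj libraries, and the other ICR libraries were at or just below the lowest of them. The ICR mean was 13.3 ± 4.11 CPM (SD, n = 3), and that of NOD/Ltj was 12.7 ± 0.775 CPM (SD, n = 3). The log2 fold change was −0.07 (95% interval −0.63 to 0.48, edgeR adjusted p = 0.945) and 0.19 without ICR 1 (95% interval −0.22 to 0.59). Mcm5, a helicase subunit, stood at 3.28, 0.905 and 0.874 CPM in ICR and at 2.17, 5.04 and 3.98 CPM in NOD/Ltj. ICR 1 fell between the NOD/Ltj libraries, and ICR 2 and ICR 3 were below all of them. The ICR mean was 1.69 ± 1.38 CPM (SD, n = 3), and that of NOD/Ltj was 3.73 ± 1.46 CPM (SD, n = 3). The log2 fold change was 1.14 (95% interval −0.25 to 2.54, edgeR adjusted p = 0.498), the largest of all 36 members. Without ICR 1 it was 2.06 (95% interval 1.01 to 3.10, adjusted p = 0.0652), or 4.16-fold.

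The estimates for the other helicase subunits differed in sign over all libraries, and none was called. Mcm3, Mcm6 and Mcm2 are given in full here because of their values. Mcm3 stood at 6.76, 1.60 and 1.84 CPM in ICR and at 3.65, 5.42 and 3.76 CPM in NOD/Ltj, so ICR 1 was 3.94 times the mean of the other ICR libraries and above all NOD/Ltj libraries. This gave a log2 fold change of 0.33 (edgeR adjusted p = 0.881), and 1.30 without ICR 1 (95% interval 0.56 to 2.04, adjusted p = 0.0853), or 2.47-fold. Mcm6 stood at 7.74, 2.58 and 3.51 CPM in ICR and at 6.15, 7.77 and 8.68 CPM in NOD/Ltj, with ICR 1 inside the NOD/Ltj range. Its log2 fold change was 0.71 (edgeR adjusted p = 0.551), and 1.29 without ICR 1 (95% interval 0.66 to 1.93, adjusted p = 0.0603), or 2.45-fold. Mcm2 went the other way, at 6.57, 4.89 and 4.18 CPM in ICR and at 4.17, 3.84 and 3.76 CPM in NOD/Ltj. Its groups did not overlap, though ICR 3 and NOD/Ltj 1 were nearly level. The Mcm2 log2 fold change was −0.41 (95% interval −1.01 to 0.18, edgeR adjusted p = 0.579), and −0.23 without ICR 1 (95% interval −0.78 to 0.32, adjusted p = 0.702). Mcm4 and Mcm7 had log2 fold changes of −0.08 and 0.11 over all libraries, and of 0.44 and 0.36 without ICR 1. The proteins Mcm2 to Mcm7 sit in 1 ring with a copy of each. Over all libraries the intervals of the Mcm5 RNA (−0.25 to 2.54) and the Mcm2 RNA (−1.01 to 0.18) overlapped. Without ICR 1, that of Mcm5 began at 1.01 and that of Mcm2 ended at 0.32. These 2 genes were picked as the extremes of the licensing group, and the difference between them was not tested. The promoters of Mcm3, Mcm5 and Mcm6 hold E2F sites and CCAAT boxes in the letters searched, and that of Mcm2 holds a homology region and a CCAAT box. Mcm7 holds all 3 motifs over its promoters and had a log2 fold change of 0.36 without ICR 1. Any link between these motifs and the levels was not tested.

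The nucleotide supply genes make the precursors of DNA, and they differed least between the groups, with a median log2 fold change of 0.05 and of 0.14 without ICR 1. Rrm1, the large subunit of ribonucleotide reductase and the member of this group with the highest CPM, stood at 12.7, 8.21 and 7.22 CPM in ICR and at 9.43, 9.80 and 10.6 CPM in NOD/Ltj. ICR 1 was above the NOD/Ltj libraries, and ICR 2 and ICR 3 below them. For Rrm1 the log2 fold change was 0.08 (95% interval −0.48 to 0.65, edgeR adjusted p = 0.937) and 0.35 without ICR 1 (95% interval −0.08 to 0.77, adjusted p = 0.402). Tyms, thymidylate synthase, stood at 4.38, 3.28 and 4.11 CPM in ICR and at 2.80, 2.69 and 4.06 CPM in NOD/Ltj. NOD/Ltj 1 and 2 were below all ICR libraries and NOD/Ltj 3 was among them. The Tyms log2 fold change was −0.30 (95% interval −0.96 to 0.36, edgeR adjusted p = 0.752), the largest in size in this group, and −0.23 without ICR 1. Rrm2, the S phase subunit of the reductase, and Tk1, thymidine kinase, had log2 fold changes of 0.02 and 0.23, and of 0.20 and 0.08 without ICR 1. In Tk1, ICR 1 was 0.730 times the mean of ICR 2 and ICR 3, the lowest such ratio of any member.

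Among the 2 transcription factors, Foxm1 had the lowest p of all members and E2f1 a wide interval. Foxm1, the factor of the mitosis genes and the member of this pair with both the highest CPM and the largest fold change, stood at 2.04, 1.42 and 1.42 CPM in ICR and at 2.50, 3.35 and 2.14 CPM in NOD/Ltj. Its groups did not overlap, and ICR 1 was again nearest to NOD/Ltj. Its log2 fold change was 0.71 (95% interval −0.05 to 1.48, edgeR adjusted p = 0.421), and 0.89 without ICR 1 (95% interval 0.11 to 1.68, adjusted p = 0.239). E2f1 had a log2 fold change of −0.25 (95% interval −1.47 to 0.98, edgeR adjusted p = 0.911), and 0.08 without ICR 1. Its level in NOD/Ltj 1 was the same as in ICR 1, at 2.89 CPM, while NOD/Ltj 2 at 0.822 CPM was the lowest of the 6 libraries.

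Levels of different genes were compared as CPM per kilobase, using the merged exon length over all transcripts of GENCODE M21, which lowers genes with long alternative ends. By this mean over 6 libraries Pcna stood highest at 5.41, followed by Rrm2 at 2.03, Mcm7 at 1.79 and Mcm4 at 1.68. Mcm6, Cdc20 and Mki67 followed at 1.30, 1.30 and 1.18 CPM per kilobase, and Cenpf was lowest at 0.0920. Rrm2, Mcm7 and Mcm4 lay closer together than the spread of their libraries, while Pcna stood above every other member in both group means. Measured by CPM alone, the members ranged from the 24.6th percentile of the genes tested (Cdca8) to the 71.5th (Pcna). Processed copies of Pcna held 1253 counts in Pcna-ps2 against 5112 for Pcna, so its counts could have been split. Besides Kif20a, opposite-strand overlaps covered 17.4% of the exon bases of Ccne2 (with Ints8), 12.5% of Ccna2 (with Exosc9) and 7.25% of Mcm7 (with Ap4m1), and these values are uncertain for the same reason.

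Other genes of the same pathways were given from lists that do not include the members. Over all genes tested, 2.24% were called in either direction by edgeR and 47.0% had a positive log2 fold change. At that share, 0 calls in a list of this size says little. Of 59 other S phase genes, 0 were called in either direction by edgeR, and 46 had a positive log2 fold change, with a median of 0.30. Of 73 other G2 and mitosis genes tested, 0 were called and 50 were positive, with a median of 0.32. The S phase genes with the highest CPM were Rpa1, a single-strand DNA binder, and Usp1, a deubiquitinase of the DNA damage response, with log2 fold changes of 0.18 (adjusted p = 0.848) and 0.04 (adjusted p = 0.968). The G2 and mitosis genes with the highest CPM were Tubb4b, a tubulin, and Ctcf, a chromatin loop factor. Tubb4b had a log2 fold change of −0.26 (adjusted p = 0.709), and −0.39 without ICR 1. Ctcf had 0.36 (adjusted p = 0.431), and 0.38 without ICR 1. Without ICR 1, edgeR called 1 of the 59 and 2 of the 73 higher, shares near the 2.10% of all genes called higher in that fit. They are named here because they were called there. Cdc7, the kinase that fires replication origins, was at 1.72 (adjusted p = 0.036). Smc4, a condensin subunit, was at 1.59 (adjusted p = 0.037), and Cenpa, the centromeric histone, at 1.89 (adjusted p = 0.031). Over all 6 libraries these genes had log2 fold changes of 1.27, 1.16 and 1.57, with adjusted p of 0.188, 0.208 and 0.073, and were not called. ICR 1 was the highest ICR library for each of them, so leaving it out raises their values by construction. Without ICR 1, 53 of the 59 and 59 of the 73 were positive, and 0 were called lower. The largest negative value, named for its size, was that of Ung at −1.67 (edgeR adjusted p = 0.056), and −1.43 over all libraries (adjusted p = 0.133).

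The regulators that act before S phase had no called gene over the 6 libraries, where 2.24% of all genes were called and 47.0% positive. Of 12 G1 cyclins and kinases tested, 0 were called and 7 were positive, with a median of 0.07. Cdk4, the G1 kinase, averaged 38.4 ± 1.17 CPM (SD, n = 3) over the ICR libraries, and 38.0 ± 0.959 CPM (SD, n = 3) over those of NOD/Ltj. Ccnd3, a D-type cyclin used by lymphocytes among other cells, stood at 32.6, 25.6 and 27.0 CPM in ICR and at 41.2, 63.0 and 67.3 CPM in NOD/Ltj, with groups that did not overlap. Its log2 fold change was 1.01 (edgeR adjusted p = 0.083), and 1.11 without ICR 1 (adjusted p = 0.072). Of 12 CDK inhibitors and RB family genes tested, 0 were called and 8 were positive, with a median of 0.16. Against ICR 2 and ICR 3, the score of this list was 0.46 higher in ICR 1 and 0.33 higher in NOD/Ltj, close to the values of the other S phase and mitosis lists. The G1 list stood 0.07 lower in ICR 1 and 0.12 higher in NOD/Ltj. Rb1, the retinoblastoma protein that holds E2F in check, stood at 8.75, 5.22 and 6.42 CPM in ICR and at 13.2, 12.1 and 11.7 CPM in NOD/Ltj. Its log2 fold change was 0.86 (edgeR adjusted p = 0.135), and 1.07 without ICR 1 (adjusted p = 0.036), which is a call. In that fit 2.10% of all genes were called higher, and the library left out was the highest ICR library for Rb1. Of 15 other E2F and DREAM factors, 0 were called and 6 were positive, with a median of −0.13; the one with the highest CPM, Rbbp4, a histone-binding protein, had −0.32 (adjusted p = 0.558). Only 5 of 17 replication-dependent histone genes passed the filter, and 0 were called; their transcripts lack a poly(A) tail and the libraries were poly(A)-selected.

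Lymphocyte markers separated the groups far more than the members did. Of 12 B cell markers, edgeR called 11 higher in NOD/Ltj, and their summed level was 5.52 to 9.81 CPM in ICR and 172 to 749 CPM in NOD/Ltj. Of 14 T cell markers 7 were called higher, and their sum was 14.7 to 18.0 CPM in ICR and 58.1 to 156 CPM in NOD/Ltj. Of 11 cytotoxic and NK cell markers 1 was called higher (Ctsw), and all 11 had a positive log2 fold change. Their sum was 3.07 to 5.12 CPM in ICR and 15.1 to 29.4 CPM in NOD/Ltj. Of 12 plasma cell markers 1 was called higher (Ighm) and 9 were positive. Their sum was 920 to 3884 CPM in ICR and 3698 to 4656 CPM in NOD/Ltj, so the groups overlapped. The B cell sum was lowest in NOD/Ltj 1 (172 CPM) and highest in NOD/Ltj 2 (749 CPM), and the member scores of these libraries were 1.79 and 1.93. Within ICR, B, T and plasma cell scores were lower in ICR 1 than the mean of ICR 2 and ICR 3, by 0.41, 0.10 and 0.82. Scores of cytotoxic and NK cells and of germinal centre B cells were higher there, by 0.14 and 0.13, and the member score by 0.66. The T cell sum was highest in ICR 1, at 18.0 CPM against 14.7 and 17.9 CPM. The ICR scores of B cells were low, at −0.23, 0.12 and 0.25 in ICR 1 to 3. The part of lymphocytes in the members' levels was not tested.

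Markers of germinal centre B cells, which divide fast in inflamed tissue, were at or near 0, or were not called. Of 10 such genes 7 were tested and 0 called, and their sum was 32.6 to 83.4 CPM in ICR and 35.1 to 67.7 CPM in NOD/Ltj, mostly from genes such as Bcl6 that other cells also express. Rgs13 had 0 counts in every ICR library and 0, 19 and 3 counts in NOD/Ltj, and Gcnt3 had 0 counts in all 6 libraries. A count of 0 allows up to 3 fragments in a library, or 12 counts if a fragment adds 4, so only NOD/Ltj 2 stood above that floor for Rgs13.

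In ICR 1, the marker lists furthest above ICR 2 and ICR 3 were those of fibroblasts, macrophages, adipocytes and simple epithelium. Their scores in ICR 1 exceeded the mean of ICR 2 and ICR 3 by 1.79, 1.83, 1.47 and 1.21 on the log2 scale. The NOD/Ltj mean differed from the same reference by −0.22, 0.93, −0.31 and −0.07. Of these, only the macrophage list was also higher in NOD/Ltj than in ICR 2 and ICR 3. Other marker lists above that reference in both were those of cytotoxic and NK cells, germinal centre B cells and erythroid precursors. They stood 0.14, 0.13 and 0.34 above it in ICR 1, and 1.29, 0.22 and 0.10 above it in NOD/Ltj. Of 10 macrophage markers 0 were called over all libraries (median log2 fold change 0.37). Their sums were 331, 75.0 and 99.0 CPM in ICR and 174, 252 and 160 CPM in NOD/Ltj. Without ICR 1, 3 were called higher (C1qa, C1qb and C1qc), against 2.10% of all genes. ICR 1 was the highest ICR library for 9 of the 10, so leaving it out raises most of their values by construction. Of 7 fibroblast markers 0 were called, with a median of −1.02 and sums of 432 to 583 CPM in NOD/Ltj. Of 9 acinar markers 1 was called lower (Prol1), with sums of 17927 to 54020 CPM in ICR and 24388 to 35236 CPM in NOD/Ltj. Among the 7 fibroblast, 10 macrophage, 6 adipocyte and 8 epithelial markers none was at 0 throughout a group. The part of these cells in the members' levels was not tested.

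Of the remaining lists, endothelium (8 markers), myoepithelial and basal cells (8), salivary gland (5 tested) and skeletal muscle (6 tested) had 0 called genes. The erythroid list, with 4 genes tested, also had 0. In the other S phase list and the other G2 and mitosis list, ICR 1 was 0.39 above the mean of ICR 2 and ICR 3, and the NOD/Ltj mean was 0.38 and 0.37 above it. Single NOD/Ltj libraries exceeded ICR 1 there, NOD/Ltj 2 in the S phase list (2.00 against 1.89) and NOD/Ltj 2 and 3 in the other list (1.73 and 1.70 against 1.696), which none did in the members' score.

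**Figure D4:**
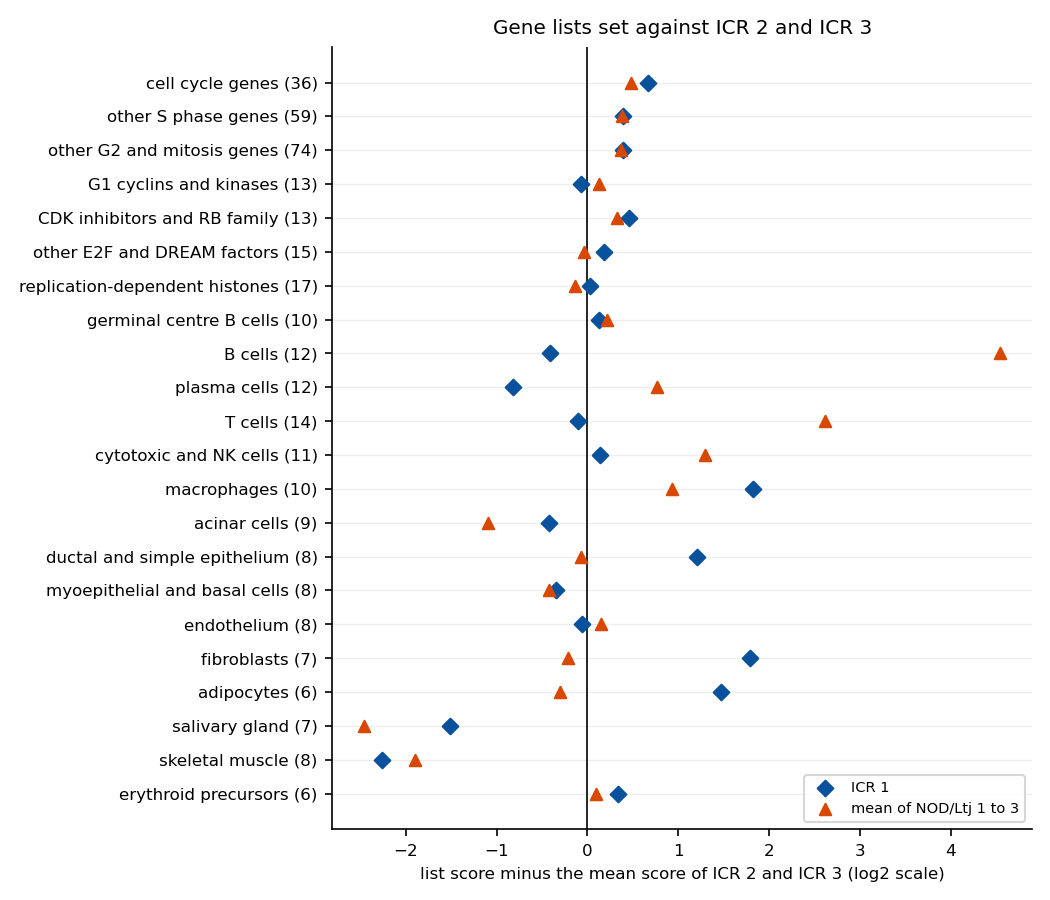
Score of each list relative to the mean of ICR 2 and ICR 3 (horizontal axis, log2 scale), for ICR 1 (diamond) and the NOD/Ltj mean (triangle), for the 36 cell cycle genes and 21 lists of other genes. The members sit at 0.66 in ICR 1 and 0.48 in NOD/Ltj, B cell markers at −0.41 and 4.55, and fibroblast markers at 1.79 and −0.22.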

How the data were processed

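Counts per gene were deposited by the authors as estimated counts for 6 libraries, already whole numbers. The submitters' processing notes list fastp, StringTie and edgeR without versions or a role for each. For the aligner, the build and whether counting used strand, nothing is given in the sources used here. Of the counts from 1 to 40, between 30.4 and 31.7% were multiples of 4, and 4 was far more frequent than 3 or 5. About 4 counts per fragment are therefore assumed for genes with few reads, an estimate that the deposited values do not settle. Because the values were whole, the count test chosen for unadjusted read counts was kept with no rounding.

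Symbols came from GENCODE M21. Differences were tested over the whole table with edgeR 4.0.16 in R 4.3.3 (quasi-likelihood test, TMM scaling, filterByExpr, two-sided, no block, Benjamini-Hochberg adjustment over 18537 genes, a gene counting as called below an adjusted p of 0.05). The TMM factors lay between 0.809 and 1.26. DESeq2 1.42.0, limma 3.58.1 (voom), other scalings and filters, a replicate block and leaving out each library were run as alternatives. The edgeR fit, but not the alternatives, was tested on simulated data. The simulated counts did not hold the steps seen in the low counts, so that test does not show how the fit handles them. Scores are means of log2(CPM + 0.5), with no test. The labels do not say that samples came from separate animals, so the p-values here measure only how these samples spread, which may be technical. No 2 libraries were alike enough to be 1 library.

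The members and lists were chosen with earlier results of these data known. Values in every library are given for Mki67 and, in each role group, for the member with the highest CPM and that with the largest absolute log2 fold change. List genes are named by smallest adjusted p where called and by highest CPM otherwise. Exceptions are said to be chosen by their values. The 95% intervals come from the edgeR standard errors and cover the spread between libraries. The floor of 3 fragments for a count of 0 allows for counting error alone, as the labels' protocols name no molecular identifiers. No coordinates of counted genes are given, since the build of the counts is not given.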

Additional observations from a re-analysis of the deposited data

How the results depend on the processing

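No member was called in any of the alternatives run, by any tool, scaling, filter or block, or with any library left out. The lowest adjusted p of a member over the libraries left out was 0.0603. Counts over all genes moved more. Against 349 genes called higher and 67 lower, DESeq2 called 898 and 285, limma-voom 123 and 20, edgeR without scaling factors 226 and 40, and edgeR with the replicate block 129 and 25. With 1 library left out the counts ran from 11 to 406 higher and from 2 to 118 lower, the highest without ICR 1 and the lowest without NOD/Ltj 3. Leaving out the scaling factors moved the median log2 fold change of all genes from −0.03 to 0.09, and the median of the members was 0.29 there. The number of members with a positive value was 34 without ICR 1, 19 without ICR 2 and 23 without ICR 3. The score difference ran from 0.14 to 0.46 with 1 library left out, the S phase one from 0.06 to 0.41 and the mitosis one from 0.18 to 0.49. Over pseudocounts, scalings, the filter and the median in place of the mean, the S phase difference ran from 0.02 to 0.31.

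The sign of several members turned. Under limma-voom, Ccnb2 was at 0.012, Bub1 at 0.083 and Mcm4 at 0.027. With the replicate block Ccnb2 was at 0.041, Bub1 at 0.089, Mcm4 at 0.048 and Kif20a at −0.025. Kif20a was at −0.0047 without the 20 most abundant genes and at −0.0036 with a mean of at least 1 CPM, and Pcna was at 0.010 without scaling factors. With 1 library left out, the log2 fold changes of members that changed sign ran from −0.080 to 0.65 (Ccna2), −0.21 to 0.54 (Ccnb1), −0.33 to 0.39 (Ccnb2), −0.12 to 0.65 (Cdk1), −0.048 to 0.57 (Plk1), −0.51 to 0.74 (Bub1), −0.072 to 0.85 (Cdca8), −0.061 to 0.73 (Birc5), −0.13 to 0.21 (Kif20a), −0.054 to 0.49 (Tpx2) and −0.45 to 0.54 (Cenpf). For S phase genes they ran from −0.0085 to 1.30 (Mcm3), −0.34 to 0.44 (Mcm4), −0.13 to 0.36 (Mcm7), −0.23 to 0.19 (Pcna), −0.071 to 0.35 (Rrm1), −0.20 to 0.20 (Rrm2), −0.0044 to 0.49 (Tk1) and −0.86 to 0.082 (E2f1). The cause was not tested.

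Same-numbered libraries did not pair: the correlation of their deviations from the group means, across genes, was −0.16, −0.19 and 0.12, and of the ICR libraries only ICR 3 correlated best with its own number. With 3 libraries per group, the median standard error of a member was 0.39, so differences near the members' median of 0.22 were not detectable. The part of low fragment numbers in this was not tested.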
